A study of Drosophila melanogaster with 4 samples.

Results

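The homeotic genes of Drosophila melanogaster lie in 2 Hox complexes on chromosome arm 3R, and dimethylation of lysine 79 of histone H3 (H3K79me2) over both complexes is described here. The 8 members are lab, pb, Dfd, Scr and Antp of the Antennapedia complex, and Ubx, abd-A and Abd-B of the bithorax complex. The marked regions were chosen by position, as every enriched cluster that overlapped 3R from 2480000 to 2830000 (Antennapedia complex, 350 kb) or from 12480000 to 12810000 (bithorax complex, 330 kb) by at least 1 base. A cluster is a run of bases that the authors called enriched for the mark. These were 16 of 6126 clusters in replicate 1, 13 of 4839 in replicate 2 and 20 of 5971 in the list made for the whole series. Chromatin immunoprecipitation and sequencing (ChIP-seq) was carried out on wild-type Oregon-R larvae in the third instar, the stage before pupation, with a polyclonal rabbit antibody from Abcam. The 4 samples were 2 ChIP replicates and 2 inputs, all of the same strain, genotype and stage, so the series holds no treated or mutant group. Values of the inputs were not analysed here, and the lists hold no read counts, so the depth behind each cluster is unknown. Positions are on FlyBase release 5, counted from 1.

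Homeotic genes encode homeodomain transcription factors that give body segments their identity along the axis from head to tail. In flies lab acts in the head and midgut, pb in the mouthparts, Dfd in the mandibular and maxillary segments, Scr in the labial segment and the front of the thorax, and Antp in the thorax. Ubx acts in the posterior thorax, where it gives the haltere its identity, abd-A in the abdomen, and Abd-B in the posterior abdomen and genitalia. Each is transcribed in part of the body and held silent elsewhere by proteins of the Polycomb group, while proteins of the Trithorax group maintain the active state. H3K79me2 is deposited in flies by grappa, the Dot1 homologue, is known from transcribed genes, and grappa alleles are known to disturb silencing by the Polycomb group. The Antennapedia complex also holds genes that have no homeotic role, among them zen and zen2, bcd, which patterns the front of the embryo, ftz, a segmentation gene, and Ama.

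In the gene table of Release 6, the members of the Antennapedia complex stood in the order lab, pb, Dfd, Scr and Antp with rising position, and those of the bithorax complex in the order Ubx, abd-A and Abd-B. From lab to Antp the table lists 43 genes, of which 19 code for protein, and from Ubx to Abd-B it lists 16, of which 6 code for protein. Outside the complexes, the neighbour of lab was agt and the neighbour of Ubx was modSP. That table and the cluster lists are on different releases, so clusters were placed within the windows by distance and were not assigned to single genes.

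Both windows were thinly covered by H3K79me2 clusters. Clusters held 4.84% of the bases of the Antennapedia window in replicate 1 and 5.19% in replicate 2, which averages 5.01% ± 0.246 (SD, n = 2). In the bithorax window they held 7.21% in replicate 1 and 6.54% in replicate 2, with a mean of 6.88% ± 0.476 (SD, n = 2). In bases this was 16.9 and 18.2 kb for the Antennapedia window, and 23.8 and 21.6 kb for the bithorax window. Arm 3R as a whole was covered at 28.1% and 26.2%, so both windows stood below the arm in both replicates. The share of the arm was 5.81 and 5.05 times that of the Antennapedia window, and 3.90 and 4.00 times that of the bithorax window. The whole-series list gave 7.38% and 9.93% for the windows, against 30.3% for the arm.

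The shortfall against the arm was 22.1 percentage points ± 1.62 for the Antennapedia window and 20.3 ± 0.900 for the bithorax window (SD of the differences within replicates, n = 2). It exceeded the spread between replicates in both cases. With 2 replicates a two-sided exact permutation test within replicates cannot go below 0.5, and it gave p = 0.5 for each window. Whether separate batches of larvae underlie the replicates is not stated in the labels, and the SDs cover only the difference between these samples. Chromatin came from larvae whose tissues and sexes are not separated in the labels, and a mark present in few cells cannot be told apart from a weak mark in many.

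Counted in bins of 1 kb, a bin was called where more than 50% of its bases lay in clusters. Of the 27905 bins of 3R, 28.3% were called in replicate 1, 26.3% in replicate 2 and 30.5% in the list of the whole series. In the Antennapedia window 17, 18 and 26 of 350 bins were called in the same order of lists. In the bithorax window 24, 22 and 33 of 330 were called. Both windows stood below the share of the arm in each list.

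Ranked against windows of equal length placed every 1 kb along 3R, the Antennapedia window was among the least covered. In replicate 1, 167 of 27557 windows, itself included, were covered no more than it, which is 0.606%. In replicate 2 these were 519 windows, or 1.88%, and in the whole-series list 670, or 2.43%. The median window of this length was covered at 26.4% and 24.5% in the replicates, and the least covered at 0.533% and 0.417%. Neighbouring windows share most of their bases, and the arm fits 79 windows of this length without overlap. By the mean of the replicates, the windows covered no more than the Antennapedia window fell into 5 separate stretches of the arm. These included that of the complex. The rank by that mean was 1.41%.

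The bithorax window ranked slightly higher. It was covered more than or as much as 1109 of 27577 windows of its length in replicate 1, or 4.02%, and 968 in replicate 2, or 3.51%. In the whole-series list the rank was 4.87%, and by the mean of the replicates 4.14%. The windows covered no more than it by that mean lay in 13 separate stretches, on an arm that fits 84 windows of this length without overlap. Some windows of 330 kb held no cluster at all in each of the 3 lists. Against windows of all 5 major arms both complexes ranked higher, the Antennapedia window at 5.35% and the bithorax window at 7.81%.

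**Figure D1:**
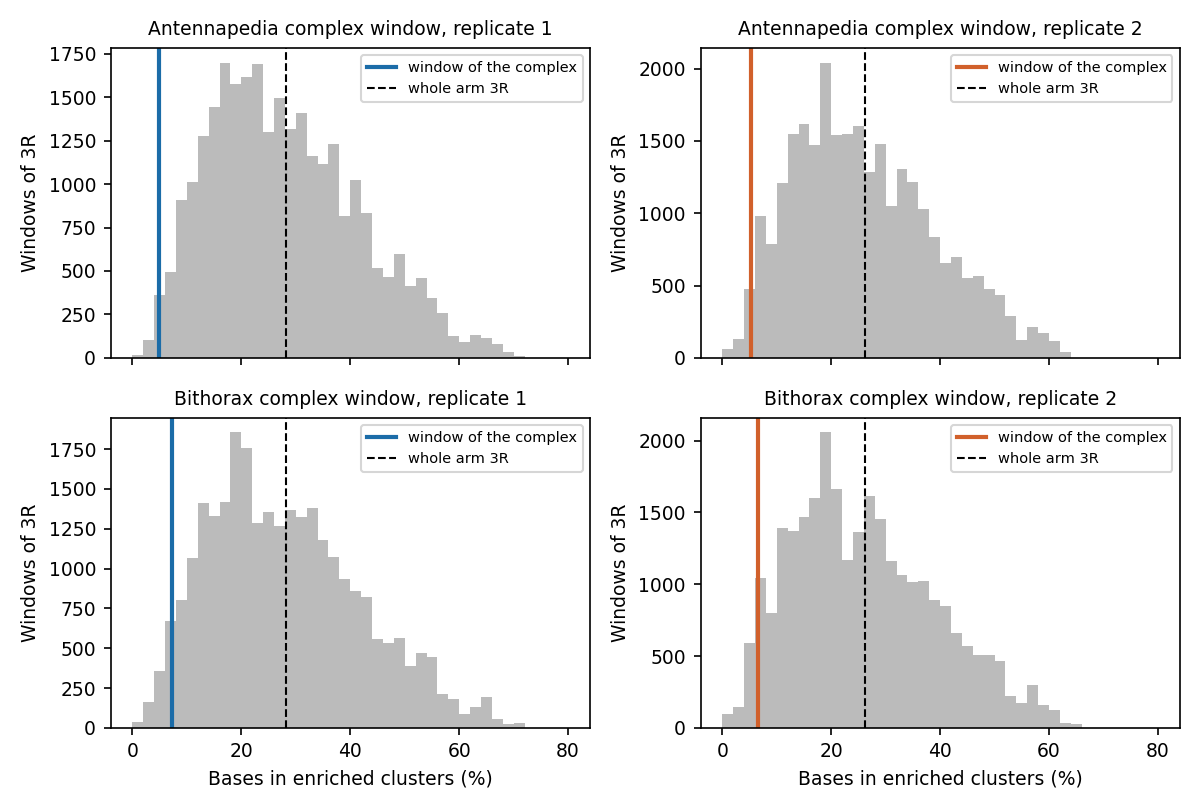
Covered share of windows of equal length along 3R (x axis, % of bases in enriched clusters, y axis, number of windows in bins of 2 percentage points) for each complex and replicate. The coloured line is the window of the complex, at 4.84% and 5.19% (Antennapedia) and 7.21% and 6.54% (bithorax), and the dashed line is the whole arm, at 28.1% and 26.2%, so that each complex stands in the left tail.

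The bithorax window exceeded the Antennapedia window by 2.37 percentage points in replicate 1, 1.35 in replicate 2 and 1.86 ± 0.722 on average (SD, n = 2). The direction was the same in both replicates, and the two-sided exact permutation p of 0.5 is the smallest that this design allows. The direction turned when clusters with scores under the median of their list were left out. The Antennapedia window then held the larger share by 0.699 percentage points. That comparison rests on few clusters, as the filter left out 6 of 7 and 4 of 5 Antennapedia clusters in the replicates. Of the bithorax clusters it left out 8 of 9 in replicate 1 and 8 of 8 in replicate 2. With 50 kb added on each side the bithorax window was covered at 14.0% and the Antennapedia window at 4.98%.

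Inside the Antennapedia window the clusters fell into 4 blocks, counting clusters of the whole-series list under 10 kb apart as 1 block, a distance chosen after the positions were seen. Distances of 5 and 20 kb gave the same number. The first block was a lone cluster of 4.31 kb from 2481524 to 2485830, 1.52 kb inside the window edge on the side of lab in the gene order. Replicate 1 covered 99.6% of it and replicate 2 covered 91.2%. It had the highest score of the window in each list, 1.31 and 1.09 in the replicates and 1.15 in the list of the whole series. Scores are those the authors deposited, on a scale the sources used here do not give, and they serve only to rank clusters within a list. That of the whole-series list lay above 73.8% of its clusters.

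The second block, 109 kb from the window start, was a cluster of 1.98 kb from 2589012 to 2590994 with a low score of 0.333, above 19.7% of the whole-series clusters. Despite that score the replicates covered 93.1% and 95.3% of it. The third block, from 2635008 to 2642440, held 2 clusters in each list, separated by less than 2 kb. Those of the whole-series list ran from 2635008 to 2638614 and from 2639086 to 2642440 and scored 0.575 and 0.589. Replicate 1 covered 74.8% of the block and replicate 2 covered 85.9%. It held 32.8% and 35.2% of the covered bases of the window, the largest part of any block in each replicate.

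The fourth block was the widest and the one on which the lists differed most. It ran for 16.2 kb from 2742564 to 2758778 in the whole-series list, 263 kb from the window start. That list held 5 clusters there, and the widest, from 2751306 to 2758778, measured 7.47 kb and scored 0.468. Its other clusters ran from 2742564 to 2743582, from 2743878 to 2745000, from 2745176 to 2746404 and from 2749480 to 2751222. None of these 4 held a base of either replicate, and their scores ran from 0.366 to 0.477. Replicate 1 held clusters from 2751421 to 2753964 and from 2757372 to 2758754, while replicate 2 held a single cluster from 2751459 to 2757412, its widest in the window at 5.95 kb. The block was covered at 24.2% and 36.7% in the replicates. The remaining replicate 1 cluster of the window, from 2740905 to 2742210, overlapped neither replicate 2 nor the whole-series list.

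**Figure D2:**
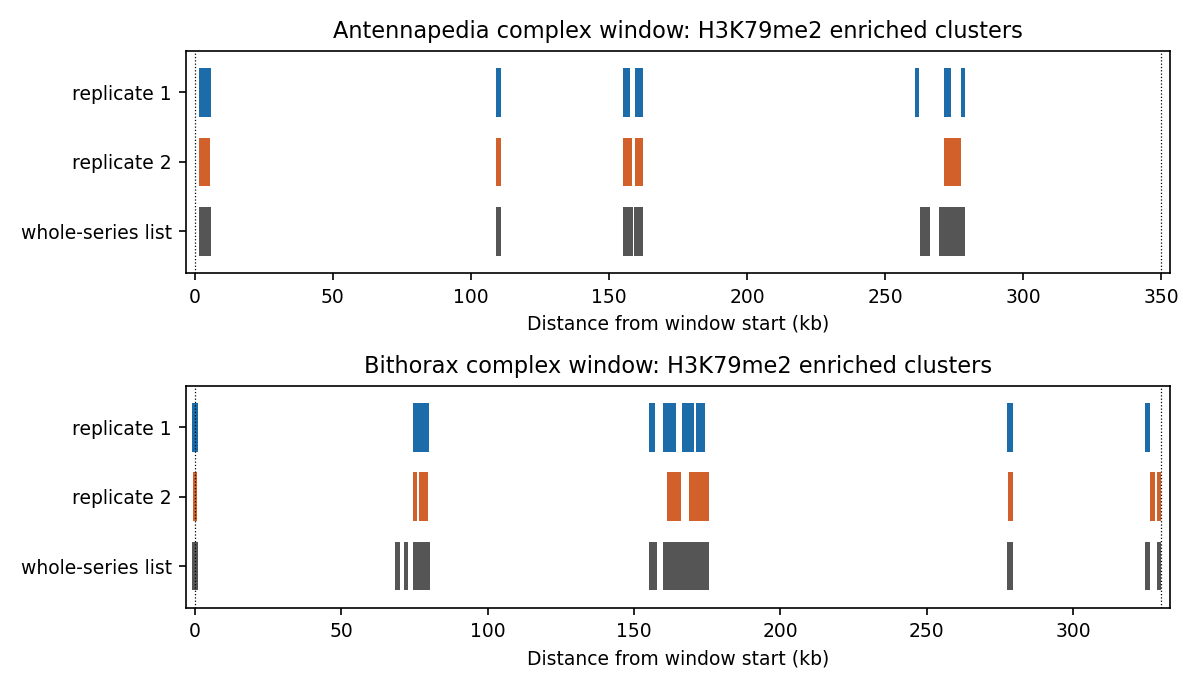
Enriched clusters in the windows of both complexes, drawn to scale as bars for each list (x axis, distance from the window start in kb, dotted lines, window edges). The Antennapedia window shows 7, 5 and 9 clusters in replicate 1, replicate 2 and the whole-series list, the bithorax window 9, 8 and 11, gathered in a few blocks with long empty stretches between them.

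The bithorax window held 5 blocks, of which the central one carried more than the others together. This block ran for 20.5 kb from 12635212 to 12655664, beginning 155 kb from the window start. It held 57.7% and 52.4% of the covered bases of the window in the replicates, and 55.3% in the list of the whole series. The whole-series clusters in it ran from 12635212 to 12637738, from 12639824 to 12645884, from 12646110 to 12651134 and from 12651160 to 12655664. The last of these had the highest score of the window, 0.798, and the cluster from 12639824 was the widest, at 6.06 kb.

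The replicates divided this block differently. Replicate 1 held 4 clusters over 13.7 kb, of which the widest, from 12639824 to 12644163, measured 4.34 kb and the highest scored, from 12651223 to 12654363, reached 1.19. Replicate 2 held 2 clusters over 11.3 kb, from 12641253 to 12645870 and from 12648922 to 12655607, the latter its widest in the window at 6.69 kb. The replicate 1 cluster from 12635197 to 12637311 had no base in replicate 2. Replicate 1 covered 67.2% of the block and replicate 2 covered 55.3%, with a Jaccard index, the bases covered in both over those covered in either, of 0.430.

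The second block of the bithorax window ran from 12548364 to 12560150, on the side of Ubx in the gene order and 68.4 kb from the window start. Its main part was a whole-series cluster of 5.77 kb from 12554380 to 12560150 with a score of 0.562, with 92.3% and 80.5% of it covered in the replicates. Each replicate divided it into 2 clusters, and the break between them lay within it in both. The whole-series clusters from 12548364 to 12550162 and from 12551508 to 12552638 had no base in either replicate. The fourth block was a lone cluster of 2.00 kb from 12757560 to 12759560, found in each list and covered at 95.5% and 92.9%. Its Jaccard index of 0.973 was the highest of the 9 blocks of both windows, although its score of 0.431 lay above only 35.2% of the whole-series clusters.

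Blocks also stood at both edges of the bithorax window. At the start, a whole-series cluster from 12478944 to 12480924 reached 0.924 kb into the window, and it was covered at 96.6% and 81.7% in the replicates. At the end, whole-series clusters ran from 12804566 to 12806418 and from 12808758 to 12809920. Replicate 1 had a single cluster there, from 12804465 to 12806421, and replicate 2 had clusters from 12806162 to 12807904 and from 12808724 to 12810028, the last with no base in replicate 1. The Jaccard index of this end block was 0.0573, the lowest of the 9. With 10 kb left out at each edge, a choice made after these positions were seen, the bithorax window was covered at 6.77% and 5.74% in the replicates, and the Antennapedia window at 3.83% and 4.31%.

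Long cluster-free stretches made up most of both windows. In the Antennapedia window the longest of the whole-series list ran for 103 kb from 2485831 to 2589011. In replicate 1 the longest ran for 103 kb from 2485837 to 2589135, and in replicate 2 for 109 kb from 2642328 to 2751458. The next in the whole-series list was 100.1 kb long, from 2642441 to 2742563, and was empty in replicate 2 while 1.31% of it was covered in replicate 1. The third, from 2758779, reached the window end after 71.2 kb and went on to 2890271, for 131 kb in all, with no cluster in the part inside the window in any list. This last stretch lay on the side of Antp in the gene order.

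In the bithorax window the longest stretch of the whole-series list ran for 102 kb from 12655665 to 12757559, and neither replicate held a base there. The longest of replicate 1, from 12654364 to 12757605, and of replicate 2, from 12655608 to 12757625, spanned nearly the same bases, at 103 and 102 kb. The next were 75.1 kb from 12560151 to 12635211 and 67.4 kb from 12480925 to 12548363. Replicate 2 held no base in either, and replicate 1 covered 0.0200% of the first of them.

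Stretches of this length also occurred elsewhere on the arm. In the whole-series list 40 of the 1392 cluster-free stretches of 3R were at least as long as the longest one lying wholly inside the Antennapedia window, and 41 were at least as long as that of the bithorax window. Each window met 3 stretches of 50 kb or more in each list, out of 112 and 120 on the arm in the replicates and 109 in the list of the whole series. Their parts inside the windows took up 78.0% and 81.5% of the Antennapedia window in the replicates, and 76.4% and 78.0% of the bithorax window. Over the arm, stretches of that length took up 42.3% and 45.9%. By bins of 10 kb, 28 of 35 in the Antennapedia window and 26 of 33 in the bithorax window were empty in both replicates, while 1374 of the 2790 bins of 3R, or 49.2%, were empty in both.

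The replicates overlapped less in both windows than over the arm. In the Antennapedia window 93.9% of the bases were covered in neither replicate, and in the bithorax window 90.8%. The replicates shared 13.6 kb of covered bases in the Antennapedia window, which was 80.2% of those of replicate 1 and 74.8% of those of replicate 2. In the bithorax window they shared 15.0 kb, or 63.0% and 69.4%. The Jaccard index was 0.632 and 0.493, against 0.833 for the whole arm. Of windows of equal length on 3R, 2.81% and 0.700% had an index no higher, and the median window had 0.828 in both cases. Among windows covered no more than the Antennapedia window the median index was 0.657, and among those covered no more than the bithorax window 0.705. These windows overlap one another and include those of the complexes, and the part that coverage plays in the index was not tested. In those sets the index ran from 0.190 to 0.867 and from 0 to 0.979.

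Clusters were also counted by whether they shared at least 1 base with the other list, a rule that a small overlap meets. Of the replicate 1 clusters, 6 of 7 in the Antennapedia window and 8 of 9 in the bithorax window had a base in replicate 2, against 84% of the 1418 replicate 1 clusters of 3R. Of the replicate 2 clusters, all 5 in the Antennapedia window and 7 of 8 in the bithorax window had a base in replicate 1, against 95.9% of the 1121 replicate 2 clusters of 3R. With so few clusters these shares are near those of the arm. Of the whole-series clusters, 4 of 9 in the Antennapedia window and 2 of 11 in the bithorax window had no base in either replicate, against 10.4% of the 1391 on 3R, and no test was made of it. They added 5.11 kb and 2.93 kb to the bases of that list.

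The clusters of the windows were mostly narrow and low in score within their own lists. In replicate 1, 14 of 16 had a score below the median of the list and 13 a width below it. In replicate 2 these were 12 and 9 of 13, and in the whole-series list 18 and 13 of 20. The median score of the members lay above 26.5% of the clusters of replicate 1, 26.3% of those of replicate 2 and 34.4% of the whole-series clusters, each taken as the median of the members' percentiles. In width, the widest member stood above 76.6% of the whole-series clusters. The widest were 4.34 and 6.69 kb in the replicates and 7.47 kb in the list of the whole series, while the widest of 3R measured 58.8, 68.1 and 83.8 kb. The members over the median score of their list were, in each list, the cluster next to the start of the Antennapedia window, and, in replicate 1 and the whole-series list, the last cluster of the central bithorax block.

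**Figure D3:**
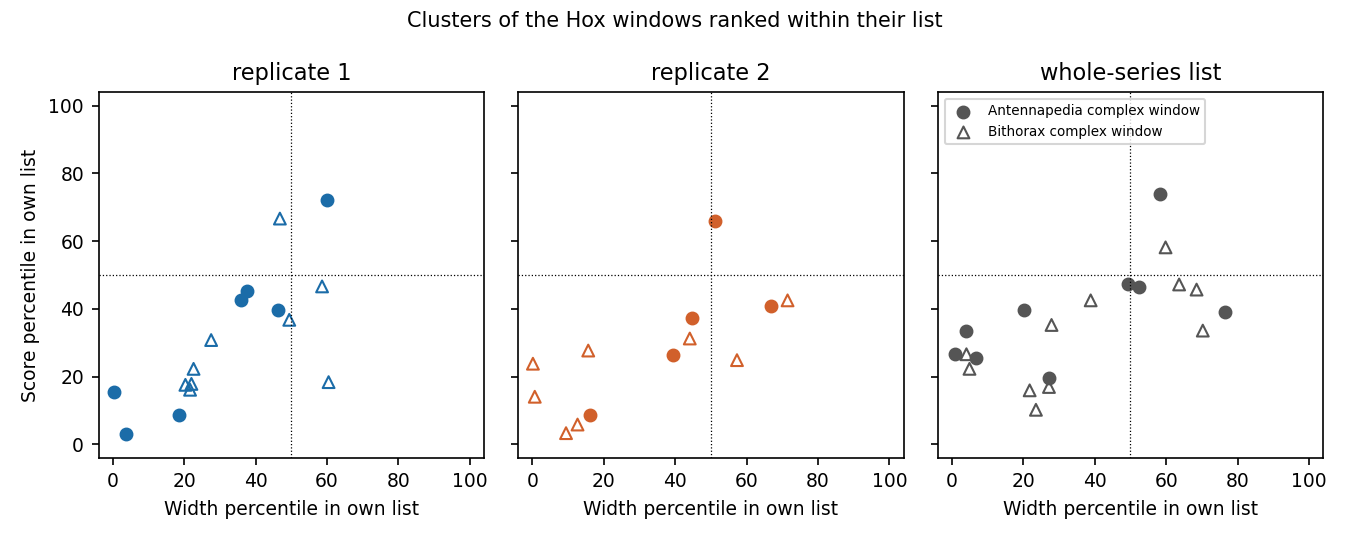
Width percentile (x axis) and score percentile (y axis) of each cluster of the windows within its own list, with filled circles for the Antennapedia window, open triangles for the bithorax window and dotted lines at 50. Below the score line lie 14 of 16 clusters of replicate 1, 12 of 13 of replicate 2 and 18 of 20 of the whole-series list.

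Clusters were also sparser in the windows than along the arm. The Antennapedia window held 2.00 clusters per 100 kb in replicate 1 and 1.43 in replicate 2, and the bithorax window 2.73 and 2.42, against 5.08 and 4.02 for 3R. Their median width in the Antennapedia window was 2461 bp in replicate 1 and 3381 bp in replicate 2, against 3440 and 3980 bp on the arm. In the bithorax window it was 2115 and 1801 bp. In both replicates each window thus held fewer clusters per 100 kb than the arm, with a lower median width. The Antennapedia median in replicate 2 rests on 5 clusters, of which 3 were narrower than the median of the list. Depleted clusters, those with a score below 0, were absent from both windows in all 3 lists, which held 14, 4 and 15 of them in all.

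The 2 complexes differed in their surroundings. The 350 kb before the Antennapedia window were covered at 29.1% ± 1.45 and the 350 kb after it at 25.7% ± 1.74 (SD, n = 2). The 330 kb before the bithorax window were covered at 21.6% ± 2.49 and those after it at 25.1% ± 1.83 (SD, n = 2). Each window was thus covered less than the equal lengths on either side of it, in both replicates. Next to the Antennapedia window coverage was sparse. The empty stretch at its end went on beyond the window. Of the 10 kb bins in the 150 kb before it the one next to the edge alone held clusters, over 62.5% and 34.7% of its bases in the replicates. Next to the bithorax window it was denser, at 77.0% and 48.0% in the 10 kb before it and 69.9% and 48.6% in the 10 kb after it. Farther out this contrast did not hold throughout. The bins from 140 to 50 kb before the bithorax window were empty in both replicates. Beyond the end of the Antennapedia window, the bin 410 kb from its start was covered at 91.8% and 80.9%.

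**Figure D4:**
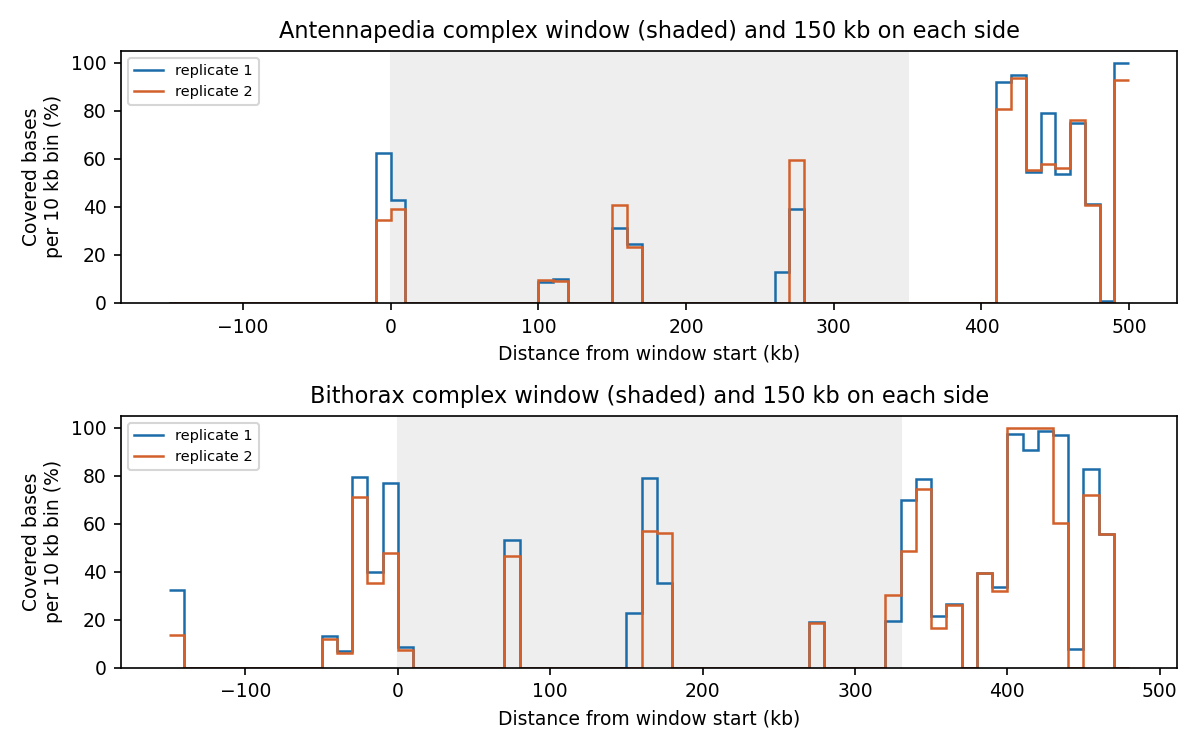
Covered share of bins of 10 kb (y axis, % of bases in enriched clusters) against distance from the window start in kb (x axis) for both replicates, with the window shaded and 150 kb on each side. The bithorax window is bordered by covered bins on both sides, at 77.0% and 69.9% in replicate 1 and 48.0% and 48.6% in replicate 2. The bins just after the Antennapedia window are empty in both replicates, while the bin just before it is covered at 62.5% and 34.7%.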

How the data were processed

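Larval chromatin was crosslinked with formaldehyde, sonicated and immunoprecipitated, per the labels' protocols, and, per the submitters' processing notes, the aligner was Bowtie 0.12.7. The deposited lists, on FlyBase release 5 per the file headers, give the first and last base and a signed score of each cluster. The sources used here do not give the cluster caller, its threshold, the scale of the score, the use of the inputs or the way replicates were combined in the whole-series list. Depth is unknown and can change the number and width of clusters.

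Covered bases were the union of enriched clusters within a window, over its full length. Each window was ranked among windows of equal length on 3R, at steps of 1 kb and with itself included, as a description without a p. Percentiles count clusters of the same list with a lower value. Differences within replicates were tested by a two-sided exact permutation test. Named positions followed a rule: each whole-series cluster of a window when it held no more than 12, the widest cluster per replicate, clusters found in 1 replicate alone, and the longest cluster-free stretches. Members, lists and alternatives were chosen with earlier results of these data known. The gene table is of Release 6 and served for names and order only. The covered share, Jaccard index and longest stretch were tested on simulated data with a planted cluster. Python 3.11.15, numpy 2.4.6, pandas 2.3.3 and matplotlib 3.10.9 were used.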

Additional observations from a re-analysis of the deposited data

How the results depend on the processing

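Of 64 recomputed values, 35 stayed within the spread between replicates (for the Jaccard index, within 10%), 28 moved beyond it and 1 reversed. The 35 include values from 1 replicate alone, which apart from ranks lie within the spread by construction. The cause of the moves was not tested beyond what each setting leaves out. With clusters at or above the median score, the covered share was 1.17% (Antennapedia) and 0.476% (bithorax), and the rank of the bithorax window 0.707%. The Jaccard index was 0.915 and 0, and the longest cluster-free stretch 344 and 251 kb. Of the Antennapedia clusters, this filter left only the one next to the start of the window in each replicate. It left out 8 of 9 bithorax clusters in replicate 1 and 8 of 8 in replicate 2. The index of 0 follows from that empty list, and the 251 kb is a mean that includes the whole empty window of replicate 2. With these few clusters the difference between the windows, Antennapedia minus bithorax, reversed from -1.86 to 0.699 percentage points. With clusters at or above the median width the shares were 2.03% and 3.00%, with a bithorax rank of 2.10% and Jaccard indices of 0.383 and 0.285. The longest stretches were then 305 and 161 kb, and the difference was -0.974. The whole-series list gave 7.38% and 9.93%, with ranks of 2.43% and 4.87%. Among windows of all 5 major arms the ranks were 5.35% and 7.81%. With 50 kb added on each side the bithorax window was covered at 14.0%, ranked 13.2%, and the difference was -9.04. With 10 kb left out on each side, added after the data were seen, the shares were 4.07% and 6.26% and the bithorax rank 3.37%.

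Without a replicate the Antennapedia rank ran from 0.606% to 1.88% and the bithorax rank from 3.51% to 4.02%. Values from 1 of 2 replicates lie within their SD of the mean by construction, except ranks taken from mean shares. Joining clusters under 1 kb apart, a step of 10 kb and leaving out the 1 Mb next to the centromere moved no value they applied to beyond the spread. No paired analysis was possible because no groups of samples were compared, the ChIP replicates being the samples with cluster lists here. The differences within replicates set regions of the same list side by side. Unknown depth limits what the cluster-free stretches show.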
